A study of Homo sapiens with 6 samples.

Results

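The 9 genes described here encode surface proteins of B cells against which therapeutic antibodies have been directed, or close relatives of such targets in the same signalling units: MS4A1, CD22, CD79A, CD79B, CD37, CD38, CD52, CD72 and CR2. They were chosen by symbol, and all 9 were found among the 23250 genes of the count table. RNA was sequenced from OCI-LY1, an established human line of diffuse large B cell lymphoma (DLBCL), a tumour of mature B cells. All 6 libraries came from cells given siRNA against BCL6 and then made to express an introduced BCL6. In 3 libraries this was WT BCL6 (wild-type rescue) and in 3 it was the BCL6 RD2 mutant (mutant rescue). BCL6 represses transcription and is required by germinal centre B cells. RD2 is its repression domain located between the BTB domain and the zinc fingers. No library without a rescue was analysed, and whether libraries came from separate cultures is not in the labels, so the spread behind each p-value may be purely technical.

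The 9 proteins fall into 4 groups. CD79A and CD79B are the signalling chains of the B cell receptor, and CR2 (CD21) is the complement receptor of the co-receptor that lowers its threshold. CD22 and CD72 are inhibitory receptors that damp receptor signals through phosphatases docked to their cytoplasmic tails. MS4A1 (CD20) and CD37 cross the membrane several times and organise signalling complexes, MS4A1 being the target of rituximab and CD37 a tetraspanin of leukocytes. CD38, an enzyme that consumes NAD and the target of daratumumab, and CD52, a short peptide on a lipid anchor and the target of alemtuzumab, complete the set. How strongly such a gene is transcribed is one of several things that set how much antigen stands on the cell.

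Library totals were 26298456 to 27574867 counts. At these depths 3 counts, taken as the detection floor, correspond to 0.109 to 0.114 CPM (a count relative to its library total), a floor that takes in counting error alone. How reads of native and introduced BCL6 transcripts were assigned is not given in the sources used here. BCL6 ranged from 16998 to 19069 counts with wild-type BCL6 put back and from 13726 to 14166 with the mutant. It was called lower in the mutant rescue (log2 fold change -0.38; edgeR, adjusted p = 7.9e-10). The 2 rescues thus differed in the counted level of BCL6 too, and its part in the results was not tested. The 7 B cell markers checked summed to 3490 to 3595 CPM with wild-type BCL6 and to 4635 to 4853 CPM with the mutant. BLNK went the other way, with 2363 to 2427 counts and 2076 to 2098 counts. All 7, among them PAX5, EBF1, BLNK, CD79A, BANK1 and POU2AF1, were above the floor in every library. Of 27 markers of T, NK, myeloid, epithelial, fibroblast and erythroid cells, only CD247 (84 to 117 counts) and EPCAM passed it in every library. EPCAM, an epithelial adhesion molecule, had 423 to 437 counts with wild-type BCL6 and 93 to 109 with the mutant, and its part in the results was not tested. CD3E and CD2 had 0 counts in every library, and KRT8, KRT18 and CDH1 had at most 1. In bulk RNA, fewer cells carrying a transcript and less transcript per cell cannot be told apart.

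MS4A1 fell far more in the mutant rescue than any other of these antigens, CD38, CD37 and CD22 fell less, and CD72 rose. CD79A, CD79B and CD52 rose by at most 1.21-fold, and CR2 was close to absent. Of the 9 genes, 8 had enough counts to be tested. Of these, 4 were higher (CD79A, CD79B, CD52 and CD72) and 4 lower (MS4A1, CD22, CD37 and CD38) in the mutant rescue, with a median log2 fold change of -0.19 against 0.01 over all 12406 tested genes (edgeR's quasi-likelihood F test with Benjamini-Hochberg adjustment, threshold 0.05). Among all tested genes 70.1% were called in either direction, 35.4% higher and 34.8% lower. A call alone therefore says little here, and the sizes of the changes carry the description. MS4A1 and CD38 were at least 2-fold lower, as were 3.22% of all tested genes. The groups did not overlap for any of the 8 tested antigens, and they did not overlap for 72.4% of all tested genes. In edgeR's glmTreat, which asks for a change beyond 1.2-fold, CD72 remained higher and MS4A1, CD22, CD37 and CD38 remained lower, with 37.0% of all tested genes called.

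**Figure D1:**
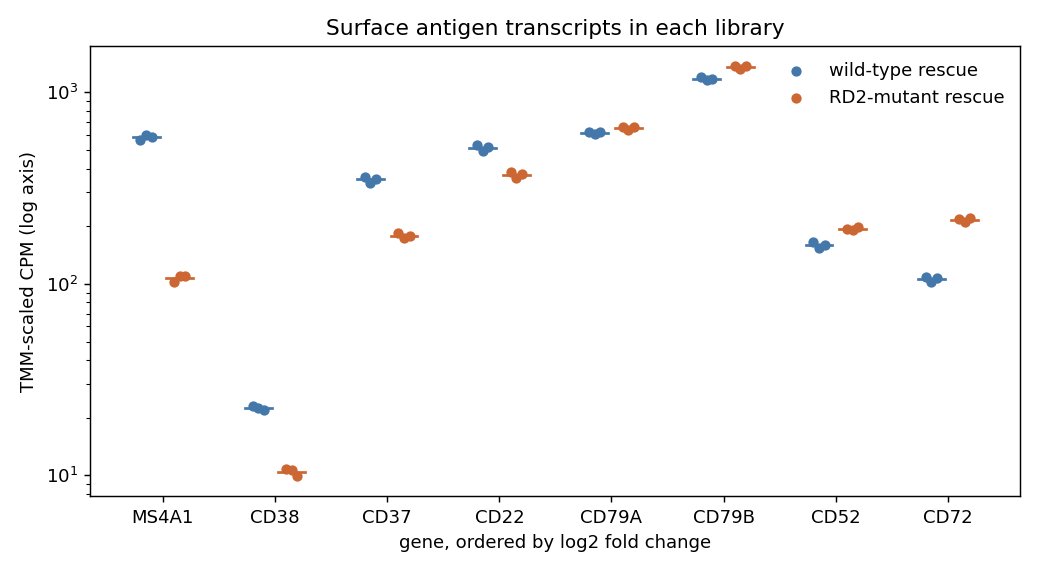
Each point is 1 library and each line the mean of 3, in TMM-scaled CPM on a log axis, for the 8 tested antigens ordered by fold change. MS4A1 drops from 583 to 107 CPM, while CD72 rises from 106 to 217 CPM.

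Promoter windows are shown so that antigens with opposite changes can be compared near their starts. The RefSeq promoter table (GRCh38.p14, another build than that of the counts) held a 300-base window, from 250 bases before to 50 after the gene start, for 6 of the 9 genes. Those without an entry were MS4A1, CD79B and CD37. The windows of CD72, the largest increase, and CD38, the largest fall among the genes with a window, are printed 5′ to 3′ on the gene's strand, with motif matches in capitals. CD72 lies on the minus strand at chr9:35618364-35618663 and CD38 on the plus strand at chr4:15778078-15778377.
CD72: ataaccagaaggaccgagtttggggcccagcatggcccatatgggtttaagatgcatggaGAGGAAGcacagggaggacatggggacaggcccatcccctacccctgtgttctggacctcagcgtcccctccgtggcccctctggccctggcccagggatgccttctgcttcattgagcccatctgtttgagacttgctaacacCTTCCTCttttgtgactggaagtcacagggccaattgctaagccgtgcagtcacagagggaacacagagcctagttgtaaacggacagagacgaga
CD38: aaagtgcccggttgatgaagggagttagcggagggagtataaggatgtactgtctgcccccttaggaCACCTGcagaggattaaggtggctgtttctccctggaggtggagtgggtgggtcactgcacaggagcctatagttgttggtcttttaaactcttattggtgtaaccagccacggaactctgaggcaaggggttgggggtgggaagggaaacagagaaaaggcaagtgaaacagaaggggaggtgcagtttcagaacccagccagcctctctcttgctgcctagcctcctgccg

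Motifs were searched on both strands as plain letters. For the octamer bound by POU2F factors the search used ATGCAAAT. The core of the BCL6 motif was taken as TTCCTNGAA, where N is any base. GAGGAAG stood for the box recognised by PU.1, an ETS factor of B cells and myeloid cells. The E-box, which E proteins such as TCF3 recognise, was CAGGTG. Core promoter elements were represented by TATAAA, the TATA box, and by GGGCGG, the GC box that factors of the SP family recognise. Their letters do not overlap one another in these windows. The CD72 window held 2 PU.1 boxes, starting at -190 and, on the opposite strand, at -46 from the gene start, a motif present in 13.6% of all 35116 windows. The CD38 window held 1 E-box on the opposite strand, starting at -183, a motif present in 20.6% of all windows. Of the other 4 windows, that of CD79A held an E-box, that of CD52 a PU.1 box, that of CR2 an E-box and a GC box, and that of CD22 none of the 6 motifs. The BCL6 core and the octamer were in none of the 6 windows, and in 1.56% and 1.77% of all windows. The windows of CD79A, CD38, CD52, CD72 and CD22 held 4, 4, 4, 6 and 9 CpG dinucleotides, below the median of 14 over all windows, and that of CR2 held 21. A match of letters describes the window and does not show that a factor binds there.

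The chains of the B cell receptor were the steadiest of the antigens. CD79B had 32776, 30338 and 32151 counts with wild-type BCL6, against 36566, 35536 and 36291 with the mutant. Every mutant library was thus above every wild-type library, even before scaling. After TMM scaling it rose 1.15-fold, from 1179 ± 17.2 to 1351 ± 23.3 CPM (SD, n = 3; log2 fold change 0.20, SE 0.028; edgeR, adjusted p = 2.77e-06). CD79A was counted at 16979, 15780 and 16897 in the 3 wild-type libraries and at 17585, 17018 and 17579 in the 3 mutant libraries. Its 2 groups lay next to each other with little room between them. The scaled rise was 1.06-fold, from 614 ± 8.98 to 650 ± 14.3 CPM (SD, n = 3; log2 fold change 0.08, SE 0.030; edgeR, adjusted p = 0.0184). In GENCODE v29 another annotated gene, AC127029.3, overlaps CD79B exons by up to 119 bases on the same strand. The call of CD79A was lost when wild-type replicate 2 (edgeR, adjusted p = 0.0519), mutant replicate 1 (0.0520) or mutant replicate 3 (0.0935) was left out, and when genes with low counts were not filtered (0.0553).

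The products of CD79A and CD79B pair with each other, so their ratio was taken within each library, a comparison chosen after their values were seen. CD79B counts per CD79A count were 1.93, 1.92 and 1.90 with wild-type BCL6, against 2.08, 2.09 and 2.06 with the mutant. The ratio was 1.08-fold higher in the mutant rescue without overlap (exact two-sided permutation test, p = 0.1, the smallest that 3 libraries against 3 can give).

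CR2, the complement receptor of the co-receptor, had 0, 1 and 4 counts with wild-type BCL6 and 0 in each mutant library. It was not tested, and no fold is given because the mean of each group was below the floor of 3 counts. In each mutant library a count of 0 allows up to 0.111 to 0.114 CPM. Of 19 other receptor chains and co-receptor partners listed, 7 were in the table, 6 were tested, 4 rose and 2 fell (median log2 fold change 0.74). Over all tested genes 35.4% were called higher and 34.8% lower. Only 2 of this list were higher when at least 1 CPM was required in every library, so the median rests partly on genes with low counts. CD81, a tetraspanin of the co-receptor, fell 1.27-fold (540 to 425 CPM; log2 fold change -0.34). IGLL5 rose by 1.11 on the log2 scale, but it shares sequence with immunoglobulin lambda constant genes, and its value is uncertain. None of the constant region genes on the list was found by symbol in the count table.

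The inhibitory receptors CD22 and CD72 moved in opposite directions. CD22, a sialic acid binding lectin that recruits the phosphatase PTPN6, had 14499, 12892 and 14060 counts with wild-type BCL6, against 10226, 9598 and 9973 with the mutant. All 3 mutant libraries were below the lowest wild-type library. CD22 fell 1.38-fold, from 513 ± 17.9 to 371 ± 12.4 CPM (SD, n = 3; log2 fold change -0.47, SE 0.034; edgeR, adjusted p = 1.03e-10). CD72, a C-type lectin that also recruits PTPN6, was counted at 2965, 2663 and 2924 in the 3 wild-type libraries and at 5868, 5659 and 5857 in the 3 mutant libraries. The mutant libraries lay close together and far above the wild-type ones. CD72 rose 2.05-fold, from 106 ± 3.36 to 217 ± 5.07 CPM (SD, n = 3; log2 fold change 1.03, SE 0.035; edgeR, adjusted p = 4.36e-16). TESK1 overlaps the CD72 exons on the opposite strand by up to 500 bases in the GENCODE v29 annotation, and the strand setting of the counts is unknown. TESK1 rose from 49.0 to 72.7 CPM (log2 fold change 0.57), and how far reads of one gene entered the count of the other was not tested.

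CD22 had 4.89, 4.84 and 4.81 counts per CD72 count with wild-type BCL6, against 1.74, 1.70 and 1.70 with the mutant, a ratio also chosen after the values were seen. With the mutant it was 2.83-fold lower (exact two-sided permutation test, p = 0.1, the smallest possible). That p was fixed once CD22 fell and CD72 rose without overlap, so it adds no support. Of the 17 inhibitory receptors, ligands and effectors listed beside them, 14 were tested, 5 rose and 9 fell. Among all tested genes 35.4% were called higher and 34.8% lower. The median log2 fold change of the list was -0.69, against 0.01 over all tested genes. The listed genes with the smallest p were the Fc receptor-like genes FCRL3 (-2.76) and FCRL2 (-1.77) and the collagen receptor gene LAIR1 (2.96). LAIR1 rose from 1.08 to 8.41 CPM. Some genes that act directly with CD22 or CD72 were named after their values were seen. Of these, the phosphatase gene PTPN6 fell by 1.82 and the kinase gene LYN by 0.61 on the log2 scale. On the same list PTPN11 changed less (-0.30), and SEMA4D rose (0.36) from only 2.39 to 3.07 CPM. The lipid phosphatase gene INPP5D rose (0.58), as did ST6GAL1, whose product makes the sialylated ligand of CD22 (0.24).

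MS4A1 had 15512, 15669 and 15908 counts with wild-type BCL6, against 2754, 2940 and 2925 with the mutant. The libraries of each rescue agreed closely, and no mutant library came near the wild-type ones. It fell 5.43-fold, from 583 ± 17.0 to 107 ± 4.0 CPM (SD, n = 3; log2 fold change -2.44, SE 0.036; edgeR, adjusted p = 4.14e-22). Only 45 of the 12406 tested genes, MS4A1 included, fell this far on the log2 scale, and its p was the 7th smallest. No other gene overlaps its exons in the basic annotation of GENCODE v29, the only one searched.

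**Figure D2:**
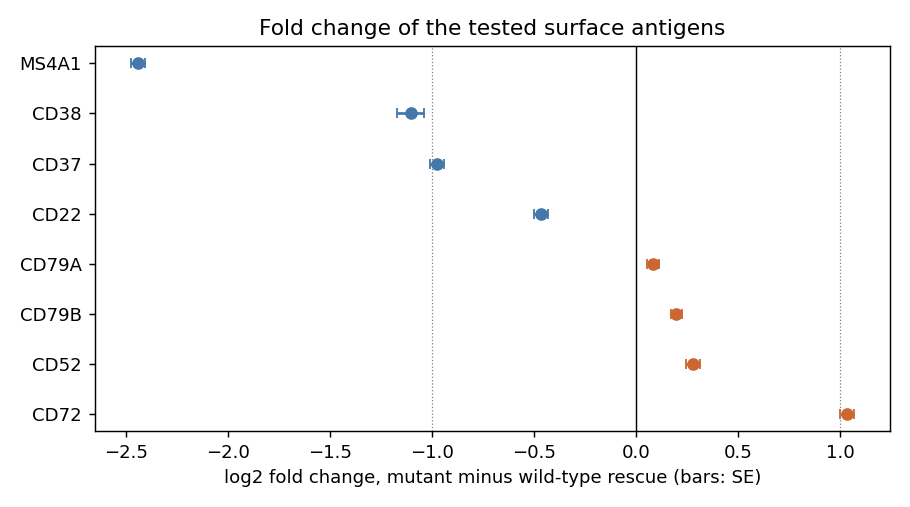
Points are log2 fold changes (mutant minus wild-type rescue) of the 8 tested antigens from the edgeR fit, bars are standard errors, and dotted lines mark 2-fold. MS4A1, at -2.44, stands apart from CD38 at -1.10, CD37 at -0.98 and CD22 at -0.47, and CD72 lies at 1.03.

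MS4A1 was alone among its gene family in this line. Of 19 symbols of the membrane-spanning 4A family and its TMEM176 relatives, 16 were in the table and only MS4A1 passed the filter. MS4A7 was counted at 12, 9 and 5 in the 3 wild-type libraries and at 3, 6 and 10 in the 3 mutant libraries, and each other member had at most 3 counts in any library. Most of this family lies in 1 chromosomal cluster. The nearest tested genes outside it were MRPL16 on one side, which did not pass the test (78.9 ± 2.23 and 76.2 ± 1.90 CPM), and CCDC86 on the other, which fell by 0.49 on the log2 scale.

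The genes whose centred log2 CPM over the 6 libraries lay nearest to that of MS4A1 were NAPSB (-2.46), JUP (-2.30), FAM81A (-2.25), COL5A1 (-2.23) and BACE2 (-2.53), with log2 fold changes in parentheses. Their Euclidean distances were 0.14, 0.20, 0.29, 0.31 and 0.33 log2 units, over genes with a mean of at least 50 counts. Their wild-type means ranged from 4.21 to 158 CPM. NAPSB is a transcribed pseudogene whose reads may be shared with NAPSA. With 2 groups, nearness mostly reflects a fall of like size.

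CD37, the tetraspanin, had 9945, 8803 and 9604 counts with wild-type BCL6, against 4907, 4678 and 4721 with the mutant. The mutant libraries differed little among themselves, and all were well below the lowest wild-type library. CD37 fell 1.97-fold, from 351 ± 13.0 to 178 ± 4.51 CPM (SD, n = 3; log2 fold change -0.98, SE 0.035; edgeR, adjusted p = 7.96e-16). Of 29 listed tetraspanins, CD37 included, 19 were tested, 10 rose and 5 fell (median log2 fold change 0.29). The shares over all tested genes were 35.4% higher and 34.8% lower. CD9, which like CD37 organises membrane proteins, rose 3.32-fold (12.8 to 42.5 CPM; log2 fold change 1.73), and TSPAN14, a partner of the protease ADAM10, rose 1.56-fold (162 to 253 CPM; log2 fold change 0.65).

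CD38, the NAD-consuming enzyme, stood at 631, 588 and 601 counts with wild-type BCL6 and 290, 286 and 265 with the mutant. The groups were separated by about as many counts as the mutant libraries held. It fell 2.15-fold, from 22.5 ± 0.487 to 10.5 ± 0.459 CPM (SD, n = 3; log2 fold change -1.10, SE 0.066; edgeR, adjusted p = 4.97e-12). CD52, the lipid-anchored peptide, was counted at 4554, 4036 and 4328 in the 3 wild-type libraries and at 5185, 5147 and 5243 in the 3 mutant libraries. The wild-type libraries were spread more widely than the mutant ones, and the groups did not overlap. CD52 rose 1.21-fold, from 160 ± 5.89 to 194 ± 2.68 CPM (SD, n = 3; log2 fold change 0.28, SE 0.034; edgeR, adjusted p = 3.09e-07). The neighbour UBXN11 overlaps CD52 exons by up to 25 bases on the opposite strand and did not pass the test (47.8 ± 5.59 and 57.2 ± 8.55 CPM).

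To set CD20 directly against the other antigens, MS4A1 counts were divided by those of each of the 7 other tested genes within every library. Such a ratio does not depend on how libraries are scaled. MS4A1 counts per CD79A count were 0.914, 0.993 and 0.941 with wild-type BCL6, against 0.157, 0.173 and 0.166 with the mutant, a 5.75-fold fall. MS4A1 counts per CD72 count were 5.23, 5.88 and 5.44 with wild-type BCL6, against 0.469, 0.520 and 0.499 with the mutant, an 11.1-fold fall. These ratios follow transcript length as well as level, so only their change between the rescues is read. Relative to CD52 the fall was 6.60-fold, to CD79B 6.22-fold, to CD22 3.93-fold, to CD37 2.76-fold and to CD38 2.52-fold. All 7 ratios were lower in every mutant library than in every wild-type library. Only 45 of the 12406 tested genes, MS4A1 included, fell as far as MS4A1, so nearly any divisor would give a lower ratio. The 7 ratios share the MS4A1 counts, are not independent, and follow from the fold changes given above. Each had p = 0.1 in an exact two-sided permutation test, which is the smallest p that 3 libraries against 3 can give, and an adjusted p = 0.1 over the 7 permutation tests, so none could pass 0.05.

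**Figure D3:**
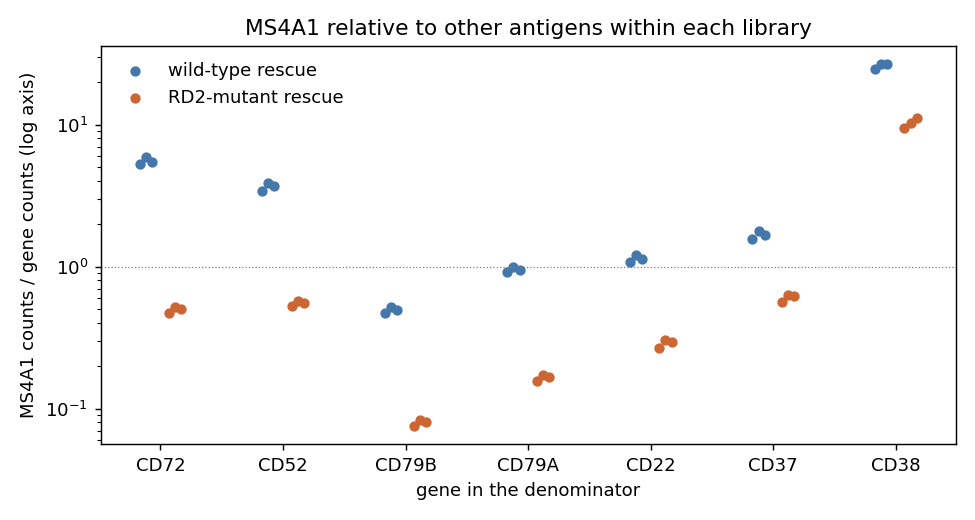
Each point is the count of MS4A1 divided by that of the gene named below it in 1 library, on a log axis, and the dotted line marks equal counts. All 7 ratios are lower in the mutant rescue, from 2.52-fold for CD38 to 11.1-fold for CD72.

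The 9 genes together took 0.343% to 0.355% of all counts with wild-type BCL6 and 0.300% to 0.317% with the mutant. Without MS4A1 they took 0.284% to 0.299% and 0.289% to 0.306%, ranges that overlap. MS4A1 alone went from 15.9% to 17.3% of the antigens' counts in the wild-type rescue to 3.30% to 3.64% in the mutant rescue.

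To set the levels of different genes side by side, CPM were divided by transcript length (TMM-scaled CPM per kilobase of the longest coding transcript in GENCODE v29). On this scale the order in the wild-type rescue was CD79B (929 ± 13.5), CD79A (488 ± 7.14), CD52 (341 ± 12.6), CD37 (209 ± 7.76), MS4A1 (168 ± 4.88), CD22 (157 ± 5.48), CD72 (52.0 ± 1.65) and CD38 (3.97 ± 0.0859). MS4A1 and CD22 lay close, with library ranges of 163 to 173 and 151 to 162. In the mutant rescue the order was CD79B (1064 ± 18.4), CD79A (517 ± 11.4), CD52 (415 ± 5.72), CD22 (114 ± 3.80), CD37 (106 ± 2.69), CD72 (106 ± 2.49), MS4A1 (30.9 ± 1.15) and CD38 (1.85 ± 0.0810). CD37 and CD72 could not be ordered there, their library ranges of 104 to 109 and 104 to 108 overlapping, and the range of CD22 began at 109. MS4A1 went from the fifth to the seventh place, and with the shortest coding transcript in place of the longest it went from the second to the seventh.

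Of 28 other surface antigens to which antibodies or engineered cells have been directed in blood cancers, 17 were tested. Of these, 10 rose and 6 fell (median log2 fold change 0.26), beside 35.4% called higher and 34.8% lower over all tested genes. The remaining 1, HLA-DRA (10 to 26 counts with wild-type BCL6 and 7 to 13 with the mutant), missed the threshold. HLA-DRA passed it when wild-type replicate 2 was left out (log2 fold change -0.97; edgeR, adjusted p = 0.0212). CXCR4, a chemokine receptor, rose 2.49-fold to 1217 CPM, and TNFRSF13B (TACI), a receptor for BAFF and APRIL, rose from 2.49 to 13.9 CPM (log2 fold change 2.48). ICAM1, an adhesion molecule, rose from 2.88 to 12.2 CPM (log2 fold change 2.08). No gene of this list fell as far as MS4A1, the lowest log2 fold change being -1.06. Of 9 complement regulators, which limit killing by antibodies that recruit complement, 3 were tested. CD46 and CD59 fell by 0.16 and 0.19 on the log2 scale, and CD55 did not pass the test (13.4 ± 0.360 and 13.3 ± 0.418 CPM).

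All 17 listed transcription factors known to act on B cell surface genes were tested (median log2 fold change 0.26). Of these, 13 rose, 3 fell and POU2F2 missed the threshold (41.4 and 40.4 CPM). Over all tested genes 35.4% were called higher and 34.8% lower. The 3 factors with the smallest p were IRF4 (2.36), IKZF3 (-1.29) and IRF8 (-0.92). IRF4 is a factor of activated B cells and plasma cells, and IKZF3 and IRF8 are both expressed in germinal centre B cells. The lists overlap in part: CD81, CD5 and FCRL5 are among the genes that stand on 2 of them, and CD37 and MS4A1 are also counted with their families.

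**Figure D4:**
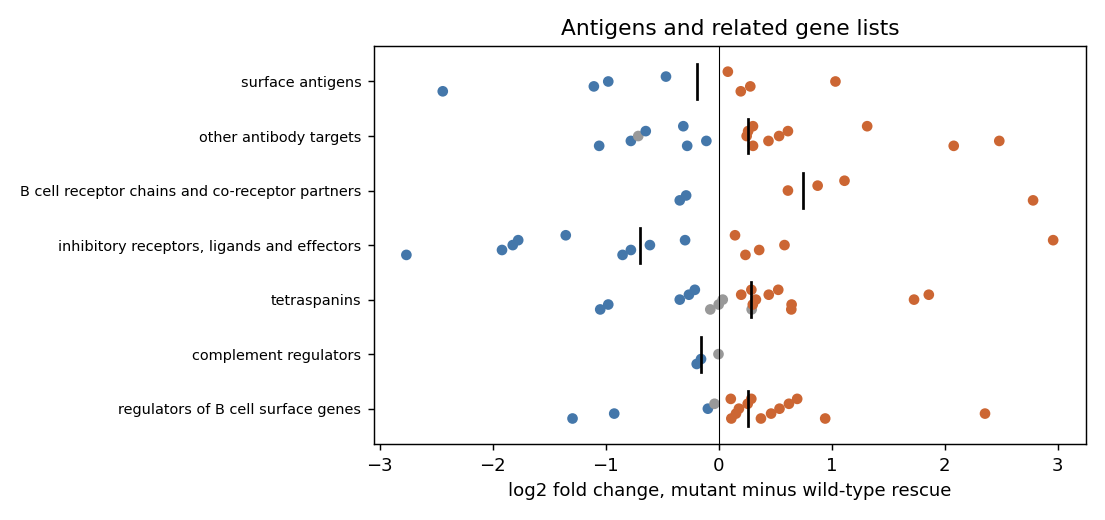
Each point is 1 tested gene at its log2 fold change (mutant minus wild-type rescue), orange where higher, blue where lower and grey where the test was not passed, with the list's median as a black bar. MS4A1 is the leftmost of the antigens at -2.44, and the inhibitory receptor list has its median at -0.69.

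The nearest tested neighbours of the antigens in the RefSeq gene order moved with some antigens and against others. Some stood several counted genes away, such as GAPDHS (7) and TAPT1 (4). MAG, another sialic acid binding lectin gene next to CD22, fell from 2.42 to 0.337 CPM (log2 fold change -2.83). GAPDHS, on the other side of CD22, also fell (-0.66). RPS19 and ARHGEF1 on either side of CD79A fell by 0.44 and 0.46 on the log2 scale as CD79A rose. SCN4A and GH1, on either side of CD79B, rose (0.95 and 1.45), GH1 to only 1.02 CPM. TEAD2, which overlaps CD37 exons by up to 12 bases on the opposite strand, rose (1.58), but to only 1.08 CPM. SLC6A16, on the other side of CD37, rose as well (1.59), to 18.6 CPM. AC011450.1 also overlaps CD37 exons, by up to 53 bases on the opposite strand. MIR5196 overlaps CD22 exons by up to 26 bases on the same strand. TESK1 and SIT1, on either side of CD72, rose with it (0.57 and 0.43). Near CD38, FAM200B and TAPT1 rose (0.53 and 1.49) as CD38 fell. AIM1L, a neighbour of CD52, fell (-0.65) to 1.16 CPM as CD52 rose. DESeq2 did not call AIM1L (adjusted p = 0.0527).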

How the data were processed

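RNA was measured in 6 libraries, grouped by their titles. The deposited values are raw read counts for each gene symbol, with 1 column per library. CASAVA 1.8.2, STAR, edgeR and build hg19 are named per the submitters' processing notes. For the read counter, annotation and strand setting: not given in the sources used here.

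Counts were analysed in R 4.3.3 with edgeR 4.0.16 (filterByExpr, TMM, robust quasi-likelihood fit, no covariate). P-values were adjusted over the 12406 tested genes by Benjamini-Hochberg with a threshold of 0.05. Standard errors are the log2 fold change divided by the root of F. Ratios used raw counts. CR2 had too few counts, so 7 ratios, not the planned 8, were tested. Alternatives included DESeq2 1.42.0 and limma-voom (limma 3.58.1). Replicates differed beyond counting noise (chi-square per degree of freedom 1.60 to 5.47) and were kept separate.

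The 9 genes and the lists were chosen with earlier results of these data known. Named genes were the 9, BCL6, up to 3 genes per list with the smallest p, the 5 genes nearest to MS4A1, and the nearest tested neighbours; other genes, such as HLA-DRA, POU2F2 and MS4A7, were named after their values were seen. Some genes of the lists are not reported here. Lengths came from the transcripts of GENCODE v29 and exon overlaps from its basic annotation. Promoter windows and gene order came from RefSeq GRCh38.p14, and all were matched by symbol.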

Additional observations from a re-analysis of the deposited data

How the results depend on the processing

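MS4A1, CD22, CD37, CD38 and CD72 kept their direction and their call under all 15 alternatives each, MS4A1 between -2.46 and -2.41 on the log2 scale. Against a minimum change of 1.2-fold (glmTreat), CD79A (0.082), CD79B (0.20) and CD52 (0.28) were no longer called, leaving 1 antigen higher, and ST6GAL1, CD46 and CD59 lost their calls too. The same test left 2383 genes higher and 2202 lower over all genes, 6 higher among the other antibody targets, 2 higher among the inhibitory receptors, 6 higher and 3 lower among the tetraspanins, 7 higher among the transcription factors, 0 lower among the complement regulators, and 1 lower among the receptor chains. CD79A was also lost without the filter on low counts (0.073), and without 1 library it ranged from 0.070 to 0.099. A minimum of 1 CPM in every library left 2 receptor chains higher, since fewer genes were tested.

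CD55 changed sign with library size scaling (0.024), with a minimum of 1 CPM (0.015), and without wild-type replicate 2, mutant replicate 1 or mutant replicate 2 (range without 1 library -0.028 to 0.023), never past the threshold. POU2F2 changed sign without mutant replicate 2 (range without 1 library -0.068 to 0.0090), also short of the threshold.

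Per kilobase of the shortest coding transcript, levels in the wild-type rescue were 1178 for MS4A1, 946 for CD22, 1084 for CD79A, 3118 for CD79B, 1063 for CD37, 49.5 for CD38 and 181 for CD72. In the mutant rescue they were 217 for MS4A1, 685 for CD22, 1147 for CD79A, 3573 for CD79B, 540 for CD37, 23.0 for CD38 and 370 for CD72. Many short transcripts in the annotation are fragments.

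Whether same-numbered libraries were handled together is not in the labels. Their deviations correlated at 0.14, 0.17 and -0.05. Libraries numbered 1 and 2 correlated best with their own number, and those numbered 3 did not. With the replicate number as a block, MS4A1 changed by -2.44, 4 antigens were higher and 4 lower, and 4680 genes were higher and 4605 lower over all genes. The block brought UBXN11 (0.26, adjusted p = 2.41e-09) and HLA-DRA (-0.70, adjusted p = 0.0473) past the threshold in edgeR, so that 7 of the other antibody targets were lower. Without the block UBXN11 also changed by 0.26, with adjusted p = 0.187 in edgeR. For MS4A1 the block took the edgeR adjusted p from 4.14e-22 to 3.58e-287 at nearly the same fold change. Why these p-values became so small was not tested, and they are not read as stronger evidence. The ratios chosen after the data were seen kept their direction without any 1 library. Depth limits CR2 and most of the MS4A family, which stayed at or near the floor.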
